A study of Danio rerio with 3 samples.

Results

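The genes described are 10 enzymes of glucose metabolism in zebrafish embryos: aldoaa, tpi1b, gapdh, pgk1, eno1a, pkma, ldha, ldhba, fbp1b and gys1. They were found on the array by the gene name printed beside each probe, or an older synonym of it, so that eno1a is listed as eno1 and pkma as pkm2a. This gave 32 of 43603 probes and 10 of 27216 gene names, with 6 probes for pkma, 4 each for eno1a, gapdh and ldhba, 3 each for aldoaa, tpi1b and ldha, 2 each for pgk1 and fbp1b, and 1 for gys1. The rule that finds their probes uses names alone.

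Wild type embryos of fish bought in a pet shop were compared at 5, 12 and 24 hours post fertilisation (hpf). Cortisol embryos came from ovulated eggs kept between 0 and 2 hpf in water with the steroid hormone cortisol at 13.8 µM, or 5 mg/L, and vehicle embryos from eggs kept over the same hours in water with 2 ml of ethanol per 1 L. All were raised at 28.5 °C, and their RNA was hybridised to 2-colour Agilent arrays, cortisol in red (Cy5) and vehicle in green (Cy3) at every stage, with no dye swap. The labels state 4 replicates for 5 hpf, 3 for 12 hpf and 1 for 24 hpf, but each stage has 1 set of values here, so the spread between batches of embryos is unknown and no test was possible. All differences below are sizes in 1 set of values, and an SD is a spread between different probes of a gene, not between embryos.

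Glycolysis splits glucose into pyruvate, yielding ATP and NADH, and gluconeogenesis runs the reversible steps backwards and bypasses the irreversible ones with enzymes of its own, such as fructose bisphosphatase. Lactate dehydrogenase converts pyruvate to lactate and back, and glycogen synthase stores glucose as glycogen. In adult vertebrates glucocorticoids such as cortisol are known for raising gluconeogenesis in the liver. The zebrafish embryo lives on its yolk, and many of these enzymes have a pair of gene copies left from a genome duplication in the ancestor of teleost fish, which the letters a and b mark.

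The red channel was much dimmer at the later stages. The 95th percentile of signal minus background at 5, 12 and 24 hpf was 7318, 330 and 290 in red, the cortisol channel, against 3710, 4350 and 1978 in green. A probe counted as measured if its signal lay more than 2 SD above the mean of the negative controls. In both channels this held for 32, 25 and 27 of the 32 probes at 5, 12 and 24 hpf. All 10 enzymes had a measured probe at 5 hpf, and 9 had one at 12 and at 24 hpf, the exception being gys1. Over all genes the pooled SD of the log2 ratio between probes of a gene was 0.21, 0.33 and 0.33. The stage labels were checked in the vehicle signal, where 11 of 11 early embryo genes were lower and 12 of 12 genes of differentiated tissue were higher at 24 than at 5 hpf. The RNA is from whole embryos, so fewer cells of a type and less RNA per cell cannot be told apart. Whether a probe also binds the transcript of the other copy of its gene was not tested.

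The log2 ratio of cortisol over vehicle was small for most of the enzymes at all 3 stages. At 5 hpf the median over 10 enzymes was -0.20, beside 0.01 over all 19309 genes measured, with 4 enzymes higher and 6 lower in cortisol embryos. At 12 hpf the median over 9 enzymes was -0.01, beside -0.03 over 12765 genes, with 4 higher and 5 lower. At 24 hpf it was -0.02, beside -0.02 over 12319 genes, again with 4 higher and 5 lower. A difference of 1.5-fold, which is 0.58 on the log2 scale, was used to describe size. At 5 hpf 0 enzymes were that much higher and 0 that much lower, where 2.94% and 0.932% of all genes were. At 12 hpf eno1a and aldoaa were that much higher and fbp1b that much lower, where 1.57% and 3.24% of all genes were. At 24 hpf there were again 0 higher and 0 lower, where 1.26% and 4.43% of all genes were. Of the 9 enzymes measured at all 3 stages 3 had 1 sign throughout, where 36.4% of 10381 genes had 1 sign throughout. They were aldoaa (higher), tpi1b (lower) and fbp1b (lower). The mean of tpi1b was only -0.01 at 12 hpf, with 2 of its 3 probes above 0, and -0.04 at 24 hpf. In the log ratio that the authors deposited, these 3 enzymes had the opposite sign at 24 hpf, at -0.07, 0.14 and 0.22. With both channels required to exceed the median of the measured probes, the medians over 9, 7 and 8 enzymes were -0.16, -0.19 and -0.03, beside 0.03, -0.10 and -0.08 over all genes. The ratios depend on the curve that loess fits through each array. With median centring in its place the medians of the enzymes were 0.090, -2.45 and -1.58. Then 8 and 9 enzymes were 1.5-fold lower at 12 and 24 hpf. The share of all genes that much lower was not computed under median centring, so these counts cannot be read as particular to the enzymes.

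**Figure D1:**
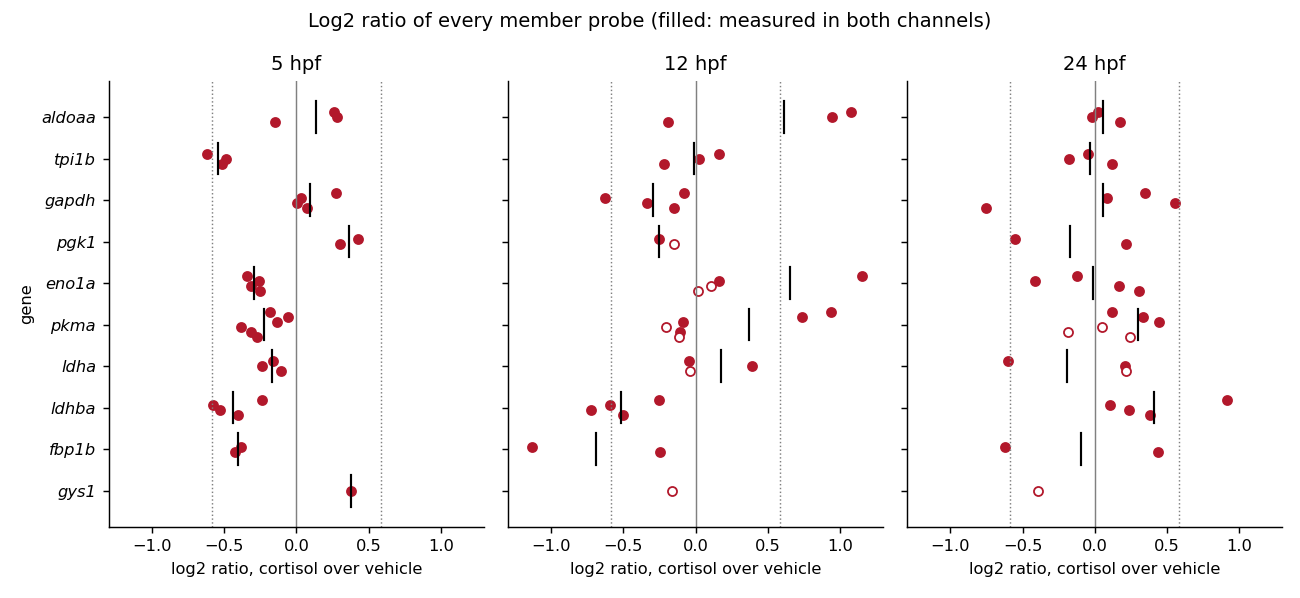
Log2 ratio of cortisol over vehicle for every probe of the 10 enzymes, 1 panel per stage. Filled points are probes measured in both channels, open points are not, and a black bar is the mean of the filled points. Dotted lines mark 1.5-fold. At 5 hpf the probes of an enzyme lie close together, and at 12 and 24 hpf they spread, with 2 probes each of aldoaa and pkma between 0.74 and 1.08 at 12 hpf.

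The values at 5 hpf were the brightest in red and the probes of an enzyme were closest together there. All probes lay on the same side of 0 in 8 of the 9 enzymes with 2 or more probes, beside 59.8% of all such genes. The aldolase aldoaa, which splits fructose bisphosphate into 2 triose phosphates, had log2 levels of 12.84 in cortisol and 12.58 in vehicle embryos on its brightest probe. Its 3 probes had ratios of 0.26, 0.28 and -0.15, with a mean of 0.13 (SD 0.24), so the dimmest of them opposed the other two. The triose phosphate isomerase tpi1b, which interconverts those triose phosphates, had levels of 9.27 in cortisol and 9.89 in vehicle embryos on its brightest probe. Its 3 ratios were -0.62, -0.49 and -0.52, with a mean of -0.54 (SD 0.068). This was the lowest of the 10 enzymes at 5 hpf, at 1.46-fold lower in cortisol embryos, and 1.25% of all genes had a lower ratio.

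Gapdh, the dehydrogenase that makes NADH and is often taken as a steady control gene, had levels of 14.04 in cortisol and 13.77 in vehicle embryos on its brightest probe. Its 4 probes ranged from 0.00 to 0.27 with a mean of 0.09 (SD 0.12), the smallest mean ratio in size among the enzymes at 5 hpf. The phosphoglycerate kinase pgk1, which makes the first ATP of the pathway, had levels of 10.35 in cortisol and 9.92 in vehicle embryos on its brighter probe. Its ratios were 0.43 and 0.30, a mean of 0.37, with 91.9% of all genes below it. The enolase eno1a, which makes phosphoenolpyruvate, had ratios between -0.34 and -0.25 on 4 probes that differ widely in brightness, with a mean of -0.29 (SD 0.044). The pyruvate kinase pkma, the last enzyme of glycolysis, was lower in cortisol embryos on 6 of 6 probes, from -0.38 to -0.06, with a mean of -0.23 (SD 0.12). The steps of glycolysis therefore lay on both sides of 0 at 5 hpf.

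The lactate dehydrogenase subunits ldha and ldhba were both lower in cortisol embryos at 5 hpf. The 3 probes of ldha lay between -0.24 and -0.10, with a mean of -0.17 (SD 0.067), on dim signals. The brightest probe of ldhba had levels of 11.09 in cortisol and 11.33 in vehicle embryos, and the 4 ratios were -0.24, -0.58, -0.53 and -0.40, with a mean of -0.44 (SD 0.15). Of all genes 2.58% had a lower ratio than ldhba and 15.3% a lower one than ldha. The fructose bisphosphatase fbp1b, an enzyme of gluconeogenesis, had ratios of -0.38 and -0.42 on probes with scanner signals of 1551 and 1247 in cortisol and 1038 and 864 in vehicle embryos. Its mean was -0.40, with 3.15% of all genes below it. The glycogen synthase gys1 was dim, with scanner signals of 272.0 in cortisol and 101.8 in vehicle embryos on its only probe, and had a ratio of 0.38. Red scanner signals are higher than green ones at 5 hpf for probes of equal level, so only the normalised ratio compares the groups. In order the mean ratios ran from tpi1b through ldhba, fbp1b, eno1a, pkma and ldha below 0 to gapdh, aldoaa, pgk1 and gys1 above it. In 7 of the 9 pairs of neighbours in this order the means differed by less than the pooled SD between probes of 0.21. The exceptions were ldha with gapdh and aldoaa with pgk1. At 12 and 24 hpf 8 of 8 such pairs were closer than the pooled SD. Sorting sets close means side by side, and this SD is between single probes, not embryos. The comparison therefore cannot show that any pair is resolved, the exceptions included.

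At 12 hpf the probes of 1 enzyme often disagreed. All probes lay on the same side of 0 in 4 of 8 enzymes with 2 or more measured probes, beside 48.4% of all such genes. The 2 bright probes of aldoaa had ratios of 1.08 and 0.94 and the third had -0.19, with a mean of 0.61 (SD 0.70). Its brightest probe had levels of 14.15 in cortisol and 13.07 in vehicle embryos, and scanner signals of 3953 in red and 25805 in green. The 200 probes of nearest mean level had ratios whose 5th to 95th percentiles ran from -0.40 to 1.33, so 1.08 lies inside the range of equally bright probes. With median centring in place of loess the mean ratio of aldoaa at 12 hpf was -2.45 and that of eno1a -0.97, so the direction of both depends on the normalisation within the array. The mean ratios of pkma and ldha at 12 hpf, 0.37 and 0.18 with loess, were -0.49 and -1.46 with median centring. Their direction therefore depends on it too.

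The enolase eno1a had the highest mean ratio at 12 hpf, 0.66 (SD 0.70), on 2 measured probes that disagreed in size. Its bright probe had levels of 11.36 in cortisol and 10.21 in vehicle embryos, a ratio of 1.15, and scanner signals of 674 in red and 2791 in green. The 200 probes nearest to it in level had ratios from -0.72 to 0.52 between the 5th and 95th percentiles, so this probe lay above that range. The other measured probe had a ratio of 0.16 on a red signal of 136.5, just over the limit of 134.7, and 2 more probes not measured in red had 0.11 and 0.02. The pyruvate kinase pkma had 0.94 and 0.74 on its 2 brighter probes and -0.09 and -0.11 on 2 dim ones. Its mean was 0.37 (SD 0.55). The dim 2 had red signals minus background of 3.8 and 0, and stand at -1.13 and 1.31 in the authors' deposited table. The disagreement in sign between pkma probes therefore rests on probes with little or no red signal above background. The brighter 2 had red signals of 197.0 and 176.0, and both ratios lay above the 95th percentiles of probes of like level, 0.23 and 0.31.

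The remaining enzymes of glycolysis among the 10 had mean ratios under 0 at 12 hpf. The 3 probes of tpi1b had ratios of 0.16, 0.02 and -0.22, with a mean of -0.01 (SD 0.19). Gapdh was lower on 4 of 4 probes, from -0.62 to -0.08, with a mean of -0.30 (SD 0.24), and 14.2% of all genes were lower still. The measured probe of pgk1 had -0.25.

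Among the remaining enzymes ldhba and fbp1b had mean ratios below 0 at 12 hpf, as they had at 5 hpf. The levels of ldhba's brightest probe were 9.87 in cortisol and 10.13 in vehicle embryos. The 4 probes of ldhba had ratios of -0.25, -0.59, -0.73 and -0.50, with a mean of -0.52 (SD 0.20). All 4 lay inside the 5th to 95th percentiles of probes of like level, the one at -0.50 only just. The brightest, at -0.25, lay close to the median of probes of its level, -0.21. The other lactate dehydrogenase, ldha, had 0.39 and -0.04 on 2 measured probes, a mean of 0.18. The probes of fbp1b had levels of 8.80 and 9.26 in cortisol and 9.93 and 9.50 in vehicle embryos. Its ratios were -1.13 and -0.24, with a mean of -0.69, which is 1.61-fold lower, and 1.92% of all genes had a lower ratio. Both its probes were lower, but their sizes differed by more than the pooled spread between probes. The ratio of -1.13 lay below the 5th percentile of probes of like level, -0.89, while -0.24 lay inside the range. The probe of gys1 was measured in green alone, at levels of 5.88 in cortisol and 6.05 in vehicle embryos. Its red signal minus background was -1.4, so no difference between the treatments could be read from it.

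At 24 hpf the enzymes lay near 0, with the exceptions of ldhba and pkma. The probes of 2 of 9 enzymes with 2 or more measured probes agreed in sign, beside 46.5% of all such genes, and these 2 were ldhba and pkma. The 4 probes of ldhba had ratios of 0.92, 0.11, 0.24 and 0.38, with a mean of 0.41 (SD 0.36), and its brightest probe had levels of 11.42 in cortisol and 10.50 in vehicle embryos. Of all genes 96.4% had a lower ratio. The 3 measured probes of pkma had ratios of 0.12, 0.34 and 0.44, with a mean of 0.30 (SD 0.16). With loess both enzymes were therefore higher in cortisol embryos at 24 hpf on all measured probes, and both were lower at 5 hpf on all probes. At 24 hpf only the ldhba probe at 0.92 and the pkma probe at 0.44 lay above the 95th percentiles of probes of like level, 0.61 and 0.33. With median centring in place of loess the means of ldhba and pkma were -1.36 and -0.85 at 24 hpf and 0.073 and 0.11 at 5 hpf.

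The other enzymes at 24 hpf had probes on both sides of 0. Gapdh had ratios of 0.35, 0.08, 0.56 and -0.75, with a mean of 0.06 (SD 0.57), the widest disagreement among enzymes with more than 2 measured probes. The mean was 0.06 (SD 0.10) for aldoaa, -0.04 (SD 0.15) for tpi1b and -0.02 (SD 0.32) for eno1a. The 2 probes of pgk1 had -0.56 and 0.21, those of ldha -0.60 and 0.21, and those of fbp1b -0.62 and 0.43. In each of these 3 pairs the probe with the higher vehicle signal had the negative ratio. The vehicle signal is the divisor of the ratio, so ranking by it favours this order. Ranked by cortisol level the order held for pgk1 and ldha but not for fbp1b. The probe of gys1 was again measured in green alone, at levels of 6.01 in cortisol and 6.40 in vehicle embryos. Its red signal minus background was -3.5, so again no difference could be read from it.

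The authors' deposited table gives a log ratio made by the scanner software, which can be set beside the ratio computed from the scanner signals. At 5 hpf the sign agreed for 10 of 10 enzymes, and the authors' deposited table has a median of -0.33 with 0 enzymes 1.5-fold higher and 0 lower, where 9.27% and 7.12% of all genes were in it. At 12 hpf the sign agreed for 8 of 9 enzymes, and the median in the authors' deposited table is 0.08. It has 2 enzymes 1.5-fold higher there and 1 lower, where 6.02% and 11.8% of all genes were, but the enzymes differ: in the authors' deposited table they are eno1a at 1.33 and pkma at 0.67 for higher, and ldhba at -0.72 for lower. Only eno1a was past 1.5-fold in both, while the authors' deposited table has 0.25 for aldoaa and -0.44 for fbp1b. At 24 hpf the sign agreed for 4 of 9 enzymes, and the authors' deposited table has ldhba highest at 0.56, followed by pkma at 0.32. It has 0 enzymes 1.5-fold higher and 0 lower at 24 hpf, where 10% and 9.21% of all genes were in the authors' deposited table. The share of all genes whose sign agreed was not computed at any stage. The counts of agreeing signs therefore cannot be read as particular to the enzymes.

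For single measured probes the size of the gap between the 2 ratios had a median of 0.041, 0.33 and 0.20 and a highest value of 0.42, 1.42 and 0.69 at 5, 12 and 24 hpf, with the authors' deposited table as the other ratio. The bright eno1a probe at 12 hpf, at 1.15 from the scanner signals, stands at 2.17 in the authors' deposited table. The 3 probes of tpi1b at 5 hpf stand at -0.62, -0.55 and -0.58 in the authors' deposited table, and the 4 of ldhba between -0.54 and -0.23. At 12 hpf the third pkma probe, at -0.09 from the scanner signals, stands at -1.13 in the authors' deposited table. The direction at 5 hpf was thus the same by either ratio for every enzyme, and at 24 hpf it was not for 5 of the 9. With median centring in place of loess ldhba (0.073), pkma (0.11), ldha (0.029) and fbp1b (0.022) lay above 0 at 5 hpf. Of the lower enzymes tpi1b (-0.12) and eno1a (-0.091) stayed below 0, and gapdh, aldoaa, pgk1 and gys1 stayed above 0. The direction of ldhba, pkma, ldha and fbp1b at 5 hpf therefore depends on the normalisation within the array.

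**Figure D2:**
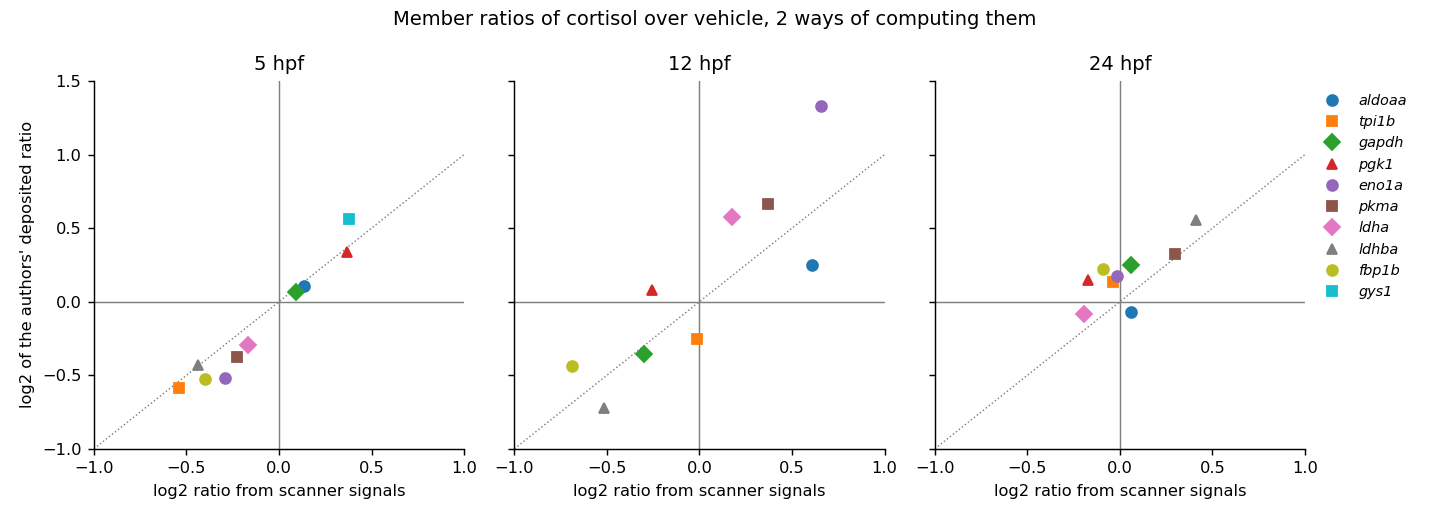
Mean log2 ratio of cortisol over vehicle of each enzyme from the scanner signals (horizontal axis) and from the authors' deposited table (vertical axis), 1 panel per stage, with the dotted line marking equal values. At 5 hpf all 10 points lie in the quadrants of agreeing sign, and at 24 hpf 4 of 9 do.

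The levels of the enzymes in embryos of either treatment also differed between stages. With loess these steps were mostly larger than the ratios of cortisol over vehicle. Loess draws the ratios towards no difference at every signal level and does not do so for the steps, so their sizes are not alike in kind. With median centring in its place the median ratio of the enzymes was -2.45 at 12 hpf and -1.58 at 24 hpf. Levels are log2 channel values scaled alike across the 3 stages, each from the same probe, and they are not compared between probes. The median vehicle level of all probes moved by -0.03, -0.07 and -0.06 between 5 and 12, 12 and 24, and 5 and 24 hpf under this scaling, by -0.39, -0.18 and -0.69 under median centring, and by -1.12, -0.08 and -1.16 in the green signals of the authors' deposited table. Steps of the enzymes are therefore also given relative to that median. Relative to it, every enzyme kept the direction of its mean step under the scaling used, in the green channel alone and in the authors' deposited table, for all 3 pairs of stages. Under median centring 2 of 10 enzymes turned for each pair: aldoaa (-0.35) and fbp1b (-0.22) between 5 and 12 hpf, aldoaa (-0.02) and ldhba (-0.21) between 12 and 24 hpf, and aldoaa (-0.25) and gys1 (0.38) between 5 and 24 hpf.

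Gapdh showed a dip at 12 hpf. On its brightest probe it had levels of 14.04, 11.44 and 13.63 in cortisol embryos and of 13.77, 11.52 and 13.28 in vehicle embryos at 5, 12 and 24 hpf. Over its 4 probes the vehicle level at 12 hpf was lower than at 5 hpf by a mean step of -2.33, or -2.30 relative to all probes, and higher at 24 than at 12 hpf by 1.72, or 1.78 relative to all probes. Of the enzymes tpi1b had a like dip, with 9.27, 8.51 and 10.10 in cortisol and 9.89, 8.36 and 10.15 in vehicle embryos. Its mean vehicle steps over 3 probes were -1.54 and 1.31. The levels of pgk1 were 10.35, 8.78 and 10.98 in cortisol and 9.92, 9.04 and 11.53 in vehicle embryos, with mean vehicle steps of -0.84 and 1.86. Under these settings both vehicle steps of gapdh were larger than the mean ratio of cortisol over vehicle of any of the 10 enzymes at any stage.

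The enolase eno1a and the lactate dehydrogenase ldha had their highest levels at 24 hpf. On its brightest probe eno1a had 10.69, 11.36 and 13.27 in cortisol embryos and 11.04, 10.21 and 13.39 in vehicle embryos at 5, 12 and 24 hpf. The step to 12 hpf went opposite ways in the 2 treatments on this probe, 0.67 in cortisol and -0.83 in vehicle embryos, which restates its ratios of -0.34 and 1.15. The levels of ldha were 7.21, 7.97 and 10.42 in cortisol and 7.37, 8.01 and 11.03 in vehicle embryos on its brightest probe. Between 5 and 24 hpf this is a step of 3.21 in cortisol and 3.66 in vehicle embryos. A second ldha probe moved alike, but the third, which was not measured in red at 12 and 24 hpf, had a vehicle step of -0.25. The brightest probe of aldoaa had 12.84, 14.15 and 13.65 in cortisol and 12.58, 13.07 and 13.63 in vehicle embryos, highest at 12 hpf in cortisol and at 24 hpf in vehicle embryos.

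The pyruvate kinase pkma and the lactate dehydrogenase ldhba had their highest vehicle levels at 5 hpf. The brightest pkma probe had 10.27, 8.52 and 8.65 in cortisol and 10.46, 7.58 and 8.53 in vehicle embryos. Its mean vehicle step between 5 and 12 hpf was -1.81 over 6 of 6 lower probes. The brightest ldhba probe had 11.09, 9.87 and 11.42 in cortisol and 11.33, 10.13 and 10.50 in vehicle embryos. Its mean vehicle step between 5 and 24 hpf was -1.61 over 4 of 4 lower probes, the opposite direction to ldha's brightest probe. The fbp1b probe of higher mean vehicle level had 8.49, 8.80 and 8.01 in cortisol and 8.91, 9.93 and 8.63 in vehicle embryos, highest at 12 hpf in both. The other fbp1b probe had the higher cortisol level at every stage. The mean vehicle step of fbp1b between 5 and 12 hpf was 0.69, or 0.71 relative to all probes, and it was -0.49 in the authors' deposited table, or 0.63 relative to all probes there. The probe of gys1 had 6.87, 5.88 and 6.01 in cortisol and 6.49, 6.05 and 6.40 in vehicle embryos, all close to the lower limit of measurement.

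**Figure D3:**
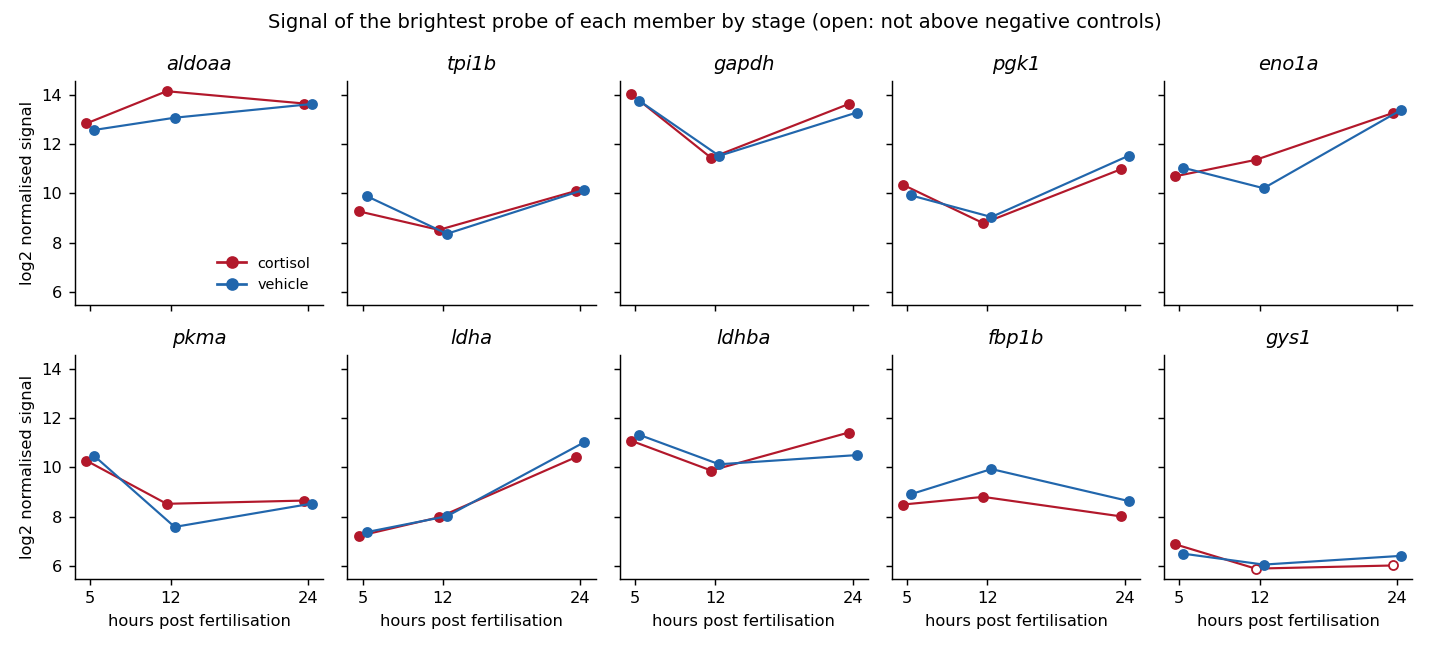
Log2 level of the brightest probe of each of the 10 enzymes in cortisol and vehicle embryos at 5, 12 and 24 hpf, 1 panel per enzyme, with 1 set of values per point and no error bar. Brightest means the highest mean vehicle level over the stages. The lines of both treatments run close together in most panels, with gapdh lowest at 12 hpf and ldha and eno1a highest at 24 hpf. Loess draws both treatments together at every signal level, so the closeness of the lines is in part set by it.

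The enzymes were set beside 9 lists of genes of glucose metabolism, from glucose uptake to the pentose phosphate pathway. Without the 10 enzymes these hold 98 genes, of which 81 were on the array and 66, 51 and 58 were measured at 5, 12 and 24 hpf. Their median log2 ratio was -0.03, -0.06 and -0.07, close to that of all genes. Of them 1, 0 and 0 were at least 1.5-fold higher and 0, 4 and 5 at least 1.5-fold lower in cortisol embryos, where 2.94%, 1.57% and 1.26% of all genes were that much higher and 0.932%, 3.24% and 4.43% that much lower. By the authors' deposited table, of these genes 2, 2 and 5 were that much higher and 3, 7 and 8 lower, where 9.27%, 6.02% and 10% of all genes were higher and 7.12%, 11.8% and 9.21% lower. At 5 hpf the 1 was pgd, the phosphogluconate dehydrogenase that makes NADPH, with levels of 9.713 in cortisol and 9.004 in vehicle embryos and 4 probes between 0.48 and 0.85 (mean 0.71). In the authors' deposited table pgd stands at 0.62.

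The list of the pentose phosphate pathway, which makes NADPH and ribose from glucose phosphate, had the lowest median at 12 hpf. All 6 of its measured genes had a ratio under 0 then, with a median of -0.57, where 55.8% of all genes had one. Of these pgd and pgls lay close to 0. The mean of pgd was -0.02 with probes from -0.18 to 0.16, and pgls had -0.06 on 1 probe. The gene tktb had -0.55 on 1 probe. The epimerase rpe had levels of 8.80 in cortisol and 9.76 in vehicle embryos at 12 hpf. Its 3 probes lay between -1.13 and -0.77, with a mean of -0.96. The transaldolase taldo1 had -0.86 over 3 probes from -1.42 to -0.11, and the isomerase rpia had -0.59 on 1 probe. In the authors' deposited table rpe, taldo1 and rpia were less far below 0, at -0.45, -0.30 and -0.34. The median there for the 6 genes is -0.40. At 24 hpf 2 genes of the list were higher and 4 lower, with rpe at -0.71 and taldo1 at -0.78, and in the authors' deposited table at -0.15 and -0.09.

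Outside that list pdhb, a subunit of the pyruvate dehydrogenase that carries pyruvate into the mitochondrial citric acid cycle, had the lowest ratio at both later stages. Its single probe had levels of 8.61 in cortisol and 9.78 in vehicle embryos at 12 hpf, a ratio of -1.16, and 8.63 in cortisol and 9.42 in vehicle embryos at 24 hpf, a ratio of -0.79. In the authors' deposited table pdhb stands at -0.56 and -0.09 at these stages. At 24 hpf the regulatory kinase pfkfb3, which makes an activator of phosphofructokinase, had -0.60 on 1 dim probe and stands at -1.20 in the authors' deposited table. The phosphoglucomutase pgm1, which links glycogen to glycolysis, had -0.61 there over 2 probes at -1.02 and -0.19, and stands at -0.13 in the authors' deposited table.

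The gluconeogenesis list, which holds fbp1b, gave no common direction at 5 hpf, with 4 genes higher and 5 lower and a median of -0.03. At 12 hpf 2 were higher and 4 lower, with a median of -0.14. At 24 hpf 7 of 7 measured genes were lower, where 53.7% of all genes were, but by a median of -0.09 and with 0 of them past 1.5-fold. Among them fbp2 (-0.004), g6pc1a.2 (-0.05) and pcxb (-0.06) lay close to 0, and the probes of fbp1b had opposite signs. The lowest were pck2 (-0.55) and slc37a4b (-0.50), on 1 probe each. In the authors' deposited table the median of the 7 is -0.02. There fbp1b (0.22), g6pc1a.2 (0.20) and slc37a4b (0.06) lie above 0 and the others below. The gene pck1, the cytosolic phosphoenolpyruvate carboxykinase whose mammalian counterpart is a known target of the glucocorticoid receptor, had 0.02 at 5 hpf, and no ratio for it could be had later. In the authors' deposited table pck1 stands at 0.39 at 5 hpf. The mitochondrial form pck2 had -0.25, 0.18 and -0.55 at 5, 12 and 24 hpf. Its 2 probes at 12 hpf were at -0.19 and 0.55, and the value at 24 hpf rests on 1 probe. In the authors' deposited table pck2 stands at -0.88, -0.26 and -1.10, so the sign at 12 hpf differs.

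**Figure D4:**
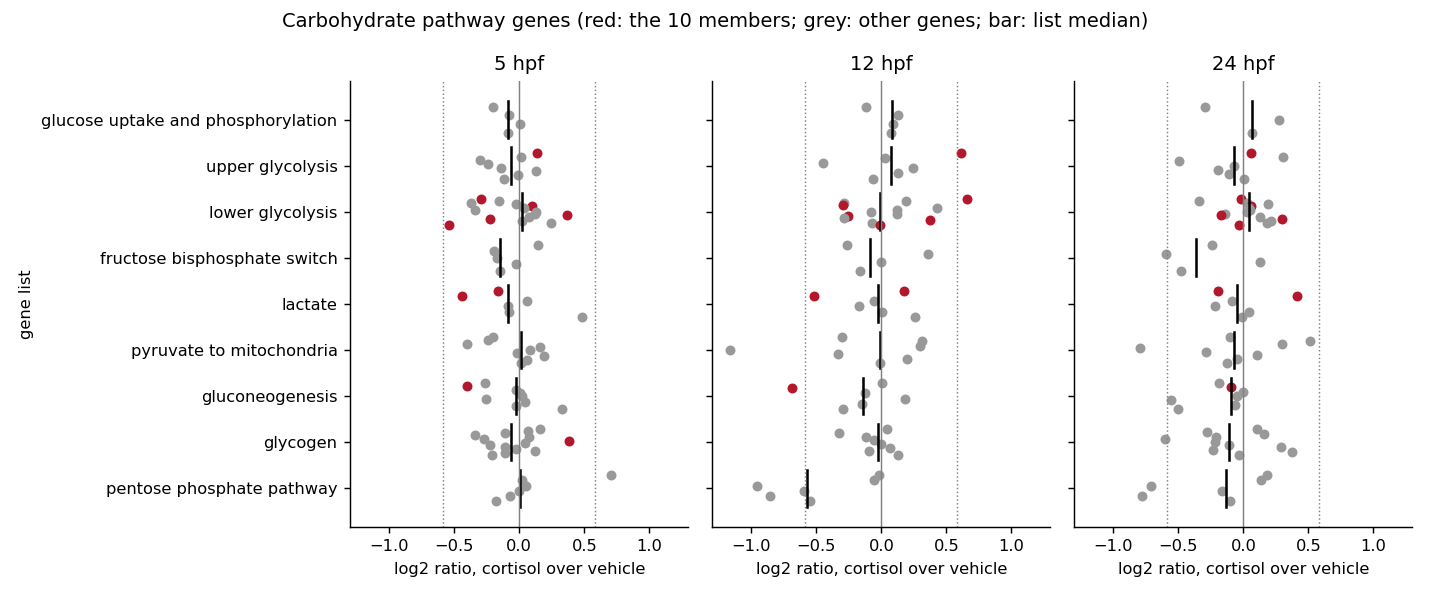
Log2 ratio of cortisol over vehicle of each measured gene of the 9 lists of glucose metabolism, 1 panel per stage, with the 10 enzymes in red, other genes in grey, a black bar at the median of each list and dotted lines at 1.5-fold. Most points lie between the lines, and the genes of the pentose phosphate pathway lie below 0 at 12 hpf, pgd and pgls only just.

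The genes most like an enzyme were searched for the 2 enzymes with the largest mean absolute ratio over the 3 stages, ldhba (0.46) and fbp1b (0.39), among 7365 genes with a proper symbol that were measured in both channels at all stages. Likeness was the Euclidean distance over the 3 ratios. Nearest to ldhba were hsdl2 at a distance of 0.11, rpn1 at 0.17 and nsa2 at 0.18, and hsdl2 had ratios of -0.34, -0.54 and 0.36 at 5, 12 and 24 hpf. Nearest to fbp1b were farsa at 0.088, arl6ip5a at 0.098 and slc39a5 at 0.11, and farsa had ratios of -0.39, -0.62 and -0.04. With 3 stages such distances describe these arrays alone.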

How the data were processed

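RNA of cortisol and vehicle embryos was measured on 3 two-colour Agilent data sets, at 5, 12 and 24 hpf. Per the submitters' processing notes the scans were read with Agilent Feature Extraction, whose version and genome build are not given in the sources used here. The authors deposited the median intensity of each spot and of its local background in both channels, and a log10 ratio of red over green with processed intensity, per the file headers. The decimals of the deposited green and red intensity values are those of a mean over 4 arrays in 99.8% and 99.6% of spots at 5 hpf and over 3 arrays in 99.3% and 100% at 12 hpf, so the values there are read as the authors' means over arrays and the correction below is approximate.

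From the signals, 12, 9 and 0 spots were left out for a local background above 2 times the median one, background was corrected with normexp (offset 50), and ratios were normalized by loess with 1417 control spots at weight 0 (limma 3.58.1, R 4.3.3). Channel levels were scaled across stages by Aquantile. A probe counted as measured if its signal lay more than 2 SD above the mean of 153 negative controls, and a gene's ratio is the mean of its probes measured in both channels. The deposited log10 ratio was rescaled to log2. The background and loess steps were tested by multiplying the red signal over background of some probes of these arrays by known folds. Only probes well above the red background were used, so dim probes and the scaling across stages were not tested. The array files hold 0 columns without a sample. Names, and nothing else, were taken from RefSeq's GRCz12tu gene table: 25258 by accession, 2766 by symbol, 1682 by synonym, while 13897 kept the file's name. Matching by accession as well gave the same 32 probes. Python 3.11.15, pandas 2.3.3 and numpy 2.4.6 were used.

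Each stage is 1 set of values, so there is no test, and precision is limited by how few arrays there are. The enzymes and the lists were chosen with earlier results of these data known. All 10 enzymes are named, and of the other listed genes those at least 1.5-fold higher or lower, up to 4 per list and stage; pck1 and pck2 were named outside this rule, after their values were seen. The genes most like an enzyme are the 3 nearest to each of the 2 enzymes with the largest mean absolute ratio. Alternatives were the deposited ratio, every spot kept, offset 20, no background correction, median centring, other filters on dim probes, and other summaries of a gene's probes. The stricter filter on dim probes, the green channel alone and the deposited green signal were chosen after seeing the data.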

Additional observations from a re-analysis of the deposited data

Results flagged for a closer look

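For 4 enzymes with 2 or more measured probes at both stages, every measured probe had a ratio of one sign at 1 stage and of the other sign at another. With 1 set of values per stage the difference was not tested in any of them. The share of all genes meeting this rule was not computed, so the count cannot be read as particular to the enzymes. The lowest gapdh probe at 5 hpf was only 0.001, and 2 of 4 eno1a probes were measured at 12 hpf. The mean log2 ratio of eno1a was 0.66 at 12 hpf against -0.29 at 5 hpf, a difference of 0.95. That of gapdh was -0.30 at 12 hpf against 0.09 at 5 hpf, a difference of -0.39. That of ldhba was 0.41 at 24 hpf against -0.44 at 5 hpf and -0.52 at 12 hpf, differences of 0.85 and 0.93. That of pkma was 0.30 at 24 hpf against -0.23 at 5 hpf, a difference of 0.52. In the authors' deposited table ldhba stands at 0.56 at 24 hpf, -0.43 at 5 hpf and -0.72 at 12 hpf. It has pkma at 0.32 at 24 hpf and -0.37 at 5 hpf. It has eno1a at 1.33 at 12 hpf and -0.52 at 5 hpf, and gapdh at -0.36 and 0.07. The deposited ratios of the gapdh probes at 12 hpf ran from -0.63 to 0.07, so they did not share 1 sign. Under median centring in place of loess ldhba had -1.36 at 24 hpf, 0.073 at 5 hpf and -2.75 at 12 hpf, pkma had -0.85 at 24 hpf and 0.11 at 5 hpf, eno1a had -0.97 at 12 hpf and -0.091 at 5 hpf, and gapdh had -2.57 at 12 hpf and 0.65 at 5 hpf. The differences between 5 hpf and the later stage thus turned for eno1a, ldhba and pkma. On a single measured probe at 12 hpf pgk1 also had -0.25, against 0.37 over 2 probes at 5 hpf. In the authors' deposited table pgk1 stands at 0.08 at 12 hpf and 0.34 at 5 hpf, so its sign did not change there.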

How the results depend on the processing

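Of the values tried, 82 medians and counts of enzymes stayed within the limits set for them and 17 moved. With median centring in place of loess the medians were 0.090, -2.45 and -1.58 at 5, 12 and 24 hpf. In that setting 3 enzymes were 1.5-fold higher at 5 hpf and 0 at 12 hpf, and 8 and 9 were 1.5-fold lower at 12 and 24 hpf. Under median centring and the other settings below no share of all genes past 1.5-fold was computed. Such counts therefore cannot be read as particular to the enzymes. Under median centring the ratios at 12 hpf of eno1a and aldoaa turned to -0.97 and -2.45. Those of pkma and ldha, which were under 1.5-fold as reported, also changed sign, to -0.49 and -1.46. Another setting took, at each stage, the 1 probe of an enzyme with the highest mean level of both channels. With it 1, 0 and 2 enzymes were 1.5-fold lower at 5, 12 and 24 hpf, and 0, 3 and 1 were higher. For fbp1b at 12 hpf this was the probe at -0.24, not the one brightest in vehicle embryos, at -1.13. At 12 hpf 1 enzyme was higher and 0 lower with every spot kept, 1 higher and 2 lower with offset 20, and 1 higher with no background correction or with no filter on dim probes. The ratio of eno1a fell under 1.5-fold with every spot kept (0.39), with no background correction (0.50) and with no filter on dim probes (0.36). That of aldoaa fell under it with offset 20 (0.54) and rose to 1.58 with every spot kept. The vehicle step of fbp1b between 5 and 12 hpf, 0.69 as reported, was -0.61 under median centring and -0.49 in the green signals of the authors' deposited table. The same step of aldoaa, 0.58 as reported, was -0.74 and -0.18 under these, and that of ldha, 0.20 as reported, was -0.26 and -1.10. Of all vehicle steps tried 61 stayed, 35 moved and 2 turned, and of all ratios of single enzymes 263 stayed, 39 moved and 2 turned, where a change of sign counts as turned if the reported value was past 1.5-fold and otherwise as moved or stayed by its size. The causes of these shifts were not tested. Matching by accession as well gave the same 32 probes, so values under that setting could not change. It supplied 9 of the 82 medians and counts that stayed and 28 of the 263 ratios that stayed. Other settings were fixed in part. With 0 spots left out at 24 hpf, keeping every spot could not change ratios there. With all 32 probes measured at 5 hpf, dropping the filter on dim probes could not either. The median of the probes equals the mean for enzymes with 1 or 2 measured probes. The counts that stayed therefore overstate how much was tested. No paired analysis was possible because each stage has 1 set of values, and for the same reason no replicate could be left out. At 12 and 24 hpf the dim red channel limits what can be read: 7 and 5 of the 32 probes were not measured in both channels.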

Other observations

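The second copies of several enzymes were measured too and did not always share the sign of the copy described above. At 5 hpf tpi1a had a log2 ratio of 0.24 on 1 probe, where tpi1b had -0.54. At 12 hpf aldoab had 0.03 over 2 probes at -0.16 and 0.21, where aldoaa had 0.61. In the authors' deposited table aldoab stands at -0.04 at 12 hpf, and aldoaa at 0.25. The enolase eno1b had -0.16, 0.19 and -0.34 at 5, 12 and 24 hpf, on 1 probe. At 5 and 12 hpf these are the same signs as those of eno1a, at -0.29 and 0.66. At 24 hpf eno1a had -0.02, with probes on both sides of 0. In the authors' deposited table eno1a stands at 0.17 at 24 hpf and eno1b at -0.28. A further enolase, eno3, had -0.37, -0.29 and 0.19. The lactate dehydrogenase copy ldhbb had 0.06, -0.06 and -0.09 at 5, 12 and 24 hpf, where ldhba had -0.44, -0.52 and 0.41. The values of ldhbb at 12 and 24 hpf rest on 1 probe. In the authors' deposited table ldhbb stands at 0.40 at 24 hpf. The copy fbp1a had -0.26, 0.00 and -0.19 at the 3 stages, where fbp1b had -0.40, -0.69 and -0.09. These genes were chosen as gene copies or relatives of the enzymes after their values were seen.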
